A study of Oryza sativa with 4 samples.

Results

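Aquaporins are membrane channels for water and small uncharged solutes, and 25 of the 17905 rice genes named on the array belong to this family. A gene was counted as an aquaporin when its symbol or a synonym, with any Os prefix removed, was PIP, TIP, NIP or SIP followed by a subgroup and a member number. The rule found 10 PIP, 8 TIP, 5 NIP and 2 SIP genes. RNA came from rice (Oryza sativa) leaves at an age of 3 weeks. The plants had no stress treatment and were kept at 28 °C during the 14 h light period and 26 °C during the 10 h dark period. Leaves of plants that overexpress OsBIERF3, an ERF-type transcription factor (OsBIERF3-OE), were set against wild-type (WT) leaves, with 2 biotin-labelled Affymetrix arrays per genotype. The labels call the 2 replicates of each genotype biological. The promoter of the transgene, the number of transgenic lines and whether replicates were single plants or pools are not given in the sources used here, so p-values cover the spread between these arrays and no other. OsBIERF3 transcript levels were not analysed here, and the genotype labels were therefore not checked against them.

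In plants the plasma membrane intrinsic proteins (PIP) carry water, and some carry carbon dioxide or hydrogen peroxide, across the outer membrane of the cell. The tonoplast intrinsic proteins (TIP) sit in the vacuolar membrane and let water move into and out of the vacuole, which fills much of an expanded leaf cell. The nodulin 26-like proteins (NIP) carry mainly metalloid acids such as silicic acid, boric acid and arsenite, and the small basic proteins (SIP) lie in the endoplasmic reticulum in Arabidopsis. In leaves these channels take part in moving water from the xylem to the mesophyll and in cell expansion.

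The values are signal intensities per probe set, and each gene was read by its brightest probe set. The summed signal lay between 16286703 and 16466346 on the 4 arrays. The Pearson correlation of log2 signals between the 2 arrays of a genotype was 0.989 for both genotypes, and between arrays of different genotypes it was 0.930 to 0.948. A set of 33 control probe sets has no rice target, and the brightest of them read 28 and 26.5 on the OsBIERF3-OE arrays and 25.9 and 25.1 on the WT arrays, and this level is used here as background. Precision is limited by having 4 arrays. In whole leaves, fewer cells of a type and less RNA per cell cannot be told apart.

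The aquaporin family did not move as one. Of the 25 genes, 22 passed the filter on dim signals and were tested. In OsBIERF3-OE leaves 3 of them passed limma's adjusted p of 0.05 as higher (PIP2-1 by its brightest probe set, NIP1-1 and PIP1-1), 3 as lower (TIP4-1, PIP2-7 and TIP2-1, the last with signals under background on all arrays) and 16 did not pass. That is 27.3% of the tested members, beside 31.8% of all 15981 genes tested (17.2% higher and 14.5% lower), so the share of calls was close to that of all genes. The median log2 change, OsBIERF3-OE minus WT, was -0.11 over the 22 aquaporins and -0.04 over all genes tested. The median size of the change regardless of sign was 0.46 for the aquaporins and 0.38 for all genes. For 17 of the 22 (77.3%) both arrays of a genotype lay beyond both arrays of the other, as they did for 73.8% of all genes tested. Of the 6 genes called, PIP2-1 alone passed whichever single array was left out. None of the 3 lower calls passed without OsBIERF3-OE replicate 2, nor without either of the WT arrays. Each such fit leaves 1 array in a genotype, so a gene's own spread comes from the 2 arrays of the other genotype. The lone array is assumed to vary like them, and limma moderates that spread with that of all probe sets tested.

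**Figure D1:**
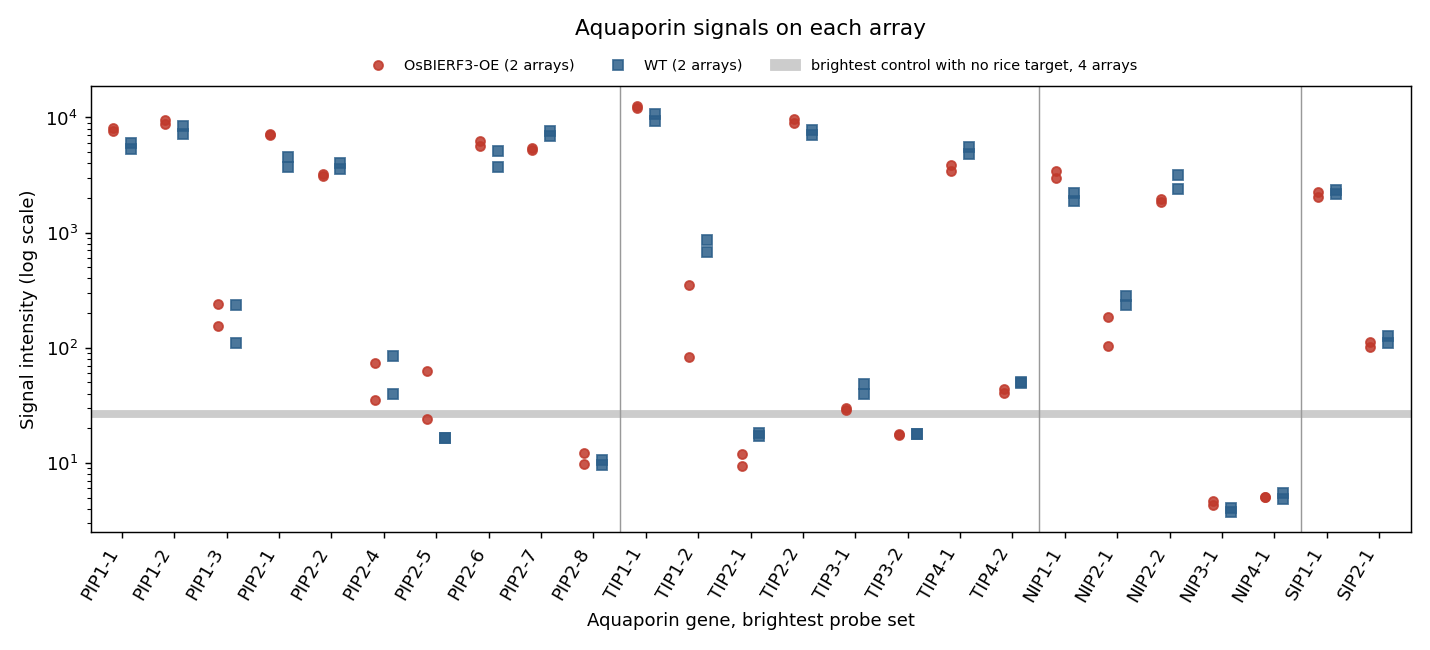
Signal intensity (log scale) of the brightest probe set of each of the 25 aquaporin genes, with 1 point per array, OsBIERF3-OE as circles and WT as squares; the grey band spans the background level of the 4 arrays. For 5 genes (PIP2-8, TIP2-1, TIP3-2, NIP3-1 and NIP4-1) no array was above background, and the 2 OsBIERF3-OE arrays of TIP1-2 lie far apart.

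Among the PIP genes, which encode the plasma membrane channels, 2 of 9 tested rose, 1 fell and 6 did not pass. That is 22.2% higher and 11.1% lower, beside 17.2% and 14.5% of all genes tested. The median log2 change of the tested PIP genes was 0.27, which is 0.31 above the median of all genes. PIP2-1 (LOC4343122), a water channel of the PIP2 group, had signals of 7127 and 7020 in OsBIERF3-OE leaves, against 4569 and 3686 in WT leaves. Both OsBIERF3-OE arrays were above both WT arrays, and this brightest probe set rose 1.72-fold (log2 change 0.79 ± 0.13, SE; 95% interval 0.47 to 1.10; limma adjusted p = 0.0142). Another PIP2-1 probe set was called lower (log2 change -1.04), and the mean over the gene's probe sets did not pass (log2 change 0.12, adjusted p = 0.575). PIP1-1 (LOC4330248, also RWC1), of the PIP1 group, had 7579 and 8127 in OsBIERF3-OE and 6018 and 5294 in WT. It rose 1.39-fold, by 0.48 ± 0.10 on the log2 scale (SE; adjusted p = 0.0295), and passed the test in none of the 4 fits that left out 1 array, with adjusted p between 0.0534 and 0.131.

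PIP2-7 (LOC4347729) went the other way. Its signals were 5202 and 5444 in OsBIERF3-OE, against 7693 and 6879 in WT, with no overlap of the genotypes. The fall was 0.45 ± 0.10 on the log2 scale (SE; 95% interval -0.70 to -0.21; adjusted p = 0.029), a signal 1.37-fold higher in WT. With any 1 array left out PIP2-7 did not pass (adjusted p from 0.0691 to 0.123), and its log2 change was -0.16 (adjusted p = 0.3) when the hybridization controls set the scale. PIP2-1 and PIP2-7, both of the PIP2 group, therefore had fitted changes of opposite sign under either scaling, and the difference between them was not tested.

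The other PIP genes did not pass. PIP1-2 (LOC9270874), the PIP gene with the highest mean signal, had 8713 and 9493 in OsBIERF3-OE and 8371 and 7241 in WT (log2 change 0.22, 95% interval -0.05 to 0.50, adjusted p = 0.195). PIP2-6 (LOC4335226) had 5678 and 6273 in OsBIERF3-OE and 5091 and 3682 in WT (log2 change 0.46, adjusted p = 0.112), and the log2 change was 0.70 without WT replicate 1 (adjusted p = 0.0409) and 0.23 without WT replicate 2 (adjusted p = 0.332). Without either OsBIERF3-OE array it did not pass (0.155 and 0.298). In both genes the genotypes did not overlap. PIP1-3 (LOC4331194, also RWC3), a channel gene studied for drought avoidance in rice, had 241 and 155 in OsBIERF3-OE and 110.1 and 235 in WT, which overlap. PIP2-2 (LOC4330049) had a log2 change of -0.26 (adjusted p = 0.135), which became 0.03 with the arrays scaled on hybridization controls.

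PIP2-4, PIP2-5 and PIP2-1 lie close together in the rice gene order, with 1 gene between PIP2-4 and PIP2-5 and 0 between PIP2-5 and PIP2-1. PIP2-5 (LOC4343121), described as a root-type aquaporin in rice, had 24.1 and 62.7 in OsBIERF3-OE, against 16.6 and 16.6 in WT. It was above background on 1 of the 2 OsBIERF3-OE arrays and on no WT array, so no fold is given, and it did not pass (adjusted p = 0.107). The fitted log2 change was 1.92 without OsBIERF3-OE replicate 1 (adjusted p = 0.0076) and 0.53 without OsBIERF3-OE replicate 2 (0.131). Leaving out WT replicate 1 or 2 gave adjusted p-values of 0.232 and 0.249. PIP2-4 (LOC4343119) had 73.6 and 35.5 in OsBIERF3-OE and 39.5 and 84 in WT, so the genotypes overlapped (log2 change -0.17, 95% interval -1.40 to 1.06, adjusted p = 0.834). Of these 3 neighbours, PIP2-1 alone passed the test. PIP2-8 (LOC4334873) was too dim to be tested, at 12.2 and 9.85 in OsBIERF3-OE and 10.5 and 9.56 in WT.

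**Figure D2:**
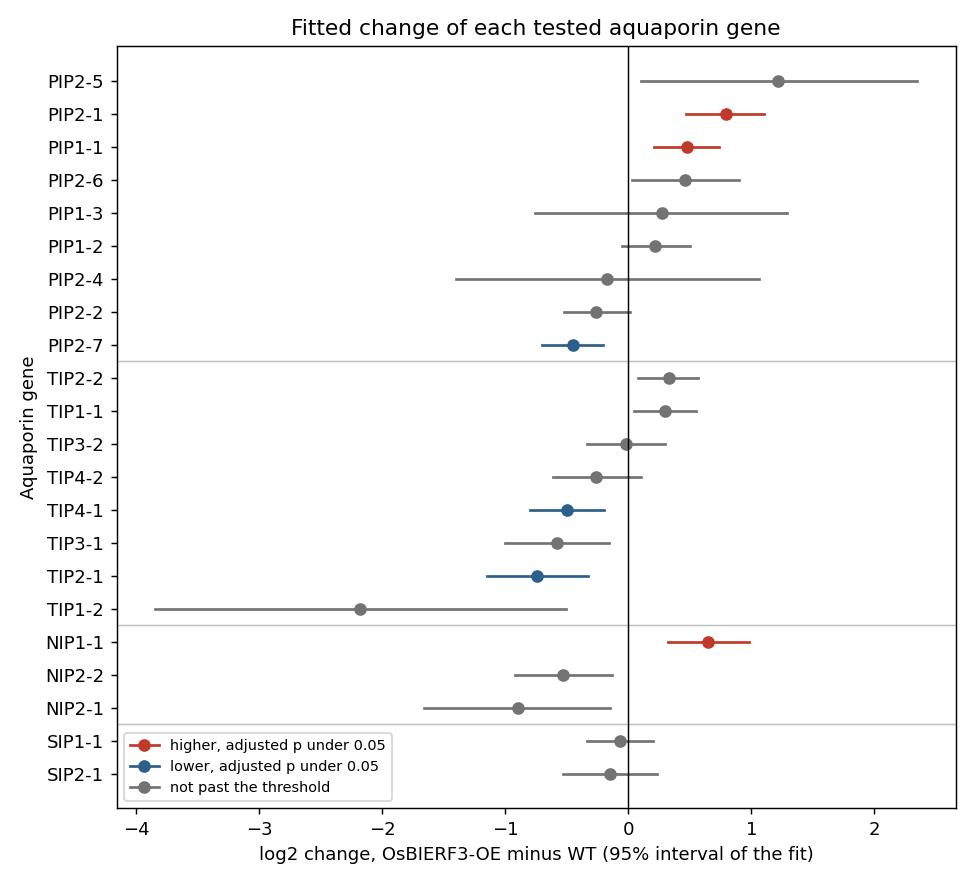
Log2 change (OsBIERF3-OE minus WT, points) with its 95% interval from the limma fit (lines) for the 22 tested aquaporin genes, grouped from top to bottom as PIP, TIP, NIP and SIP. Red marks the 3 genes that passed as higher, blue the 3 that passed as lower and grey the 16 that did not pass; TIP1-2 has the largest fitted change, -2.18, and the widest interval.

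Among the 8 TIP genes of the vacuolar membrane, TIP4-1 fell, TIP2-1 passed as lower at signals under background, 0 rose and 6 did not pass. The calls as lower are 25% of these 8 genes, beside 14.5% among all genes tested. The median log2 change was -0.38, which is 0.33 below the median of all genes, and with dim signals raised to background it was -0.08. TIP4-1 (LOC4338163) had signals of 3458 and 3894 in OsBIERF3-OE leaves, against 5590 and 4815 in WT leaves. Both OsBIERF3-OE arrays were below both WT arrays, and the gene fell by 0.50 ± 0.12 on the log2 scale (SE; 95% interval -0.80 to -0.20; adjusted p = 0.0374), a signal 1.41-fold higher in WT. It did not pass with any 1 array left out (adjusted p from 0.0655 to 0.146) or with the arrays scaled on hybridization controls (log2 change -0.21, adjusted p = 0.279).

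TIP2-1 (LOC4330207), described as root-type in rice, passed the test at signals that were not above background on any array. They were 12 and 9.47 in OsBIERF3-OE, against 17.2 and 18.3 in WT (fitted log2 change -0.74, adjusted p = 0.0306), and no fold is given. Its OsBIERF3-OE mean lay under 12.3, the lowest mean signal tested, so it passed the filter through its WT signal. With dim signals raised to the background level of each array the fitted value was 0.10 (adjusted p = 0.244), since both genotypes then sit at that level.

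The largest fitted change of the tested aquaporins was that of TIP1-2 (LOC4324303), and it did not pass. TIP1-2 had 348 and 82.3 in OsBIERF3-OE, against 867 and 678 in WT. Both OsBIERF3-OE arrays were below both WT arrays, but they differed from each other by 2.08 on the log2 scale. The signal was 4.53-fold higher in WT (log2 change -2.18 ± 0.66, SE; 95% interval -3.85 to -0.51; adjusted p = 0.0679). The log2 change was -3.22 without OsBIERF3-OE replicate 1 (adjusted p = 0.00255) and -1.14 without OsBIERF3-OE replicate 2 (adjusted p = 0.0339), so the size rests on which OsBIERF3-OE array is used. In these fits the gap between the OsBIERF3-OE arrays is gone. The gene's own spread then comes from the WT arrays alone, moderated by limma, so the p-values of these fits do not make TIP1-2 a call. The sign was negative in all 14 alternatives, most of which could not turn it. Leaving out an array could not, since both OsBIERF3-OE arrays were below both WT arrays, and several others kept the value at -2.18.

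TIP1-1 (LOC4331608), a TIP gene with a high signal in both genotypes, had 12019 and 12586 in OsBIERF3-OE and 10676 and 9334 in WT (log2 change 0.30, adjusted p = 0.0842). TIP2-2 (LOC4340941) had 9606 and 9036 in OsBIERF3-OE and 7858 and 7005 in WT (log2 change 0.33, adjusted p = 0.0647). These were the 2 TIP genes with a positive fitted change, and neither passed. TIP3-1 (LOC4348981), of the TIP3 group that is known from seed storage vacuoles, had 28.6 and 30 in OsBIERF3-OE and 48.7 and 39.5 in WT, close to background (log2 change -0.58, adjusted p = 0.0588). TIP3-2 (LOC4336464) was not above background on any array and had a log2 change of -0.02. TIP4-2 (LOC4324277) had 40.5 and 43.8 in OsBIERF3-OE and 49.9 and 50.6 in WT (log2 change -0.26, adjusted p = 0.25), and its sign turned with the arrays scaled on hybridization controls (0.03).

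Among the NIP genes, 1 of 3 tested rose and 2 did not pass. That is 33.3% higher, beside 17.2% of all genes tested. NIP1-1 (LOC4328814), a NIP with arsenite permeability in rice, had signals of 2977 and 3454 in OsBIERF3-OE leaves, against 2216 and 1881 in WT leaves. The genotypes did not overlap, and the gene rose 1.57-fold (log2 change 0.65 ± 0.13, SE; 95% interval 0.32 to 0.98; adjusted p = 0.025). It did not pass without OsBIERF3-OE replicate 2 (adjusted p = 0.0899) or without WT replicate 2 (0.108). NIP3-1 (LOC4349102, also DTE1), a boron channel gene of rice, was not tested, with 4.32 and 4.64 in OsBIERF3-OE and 3.76 and 4.08 in WT. NIP4-1 (LOC4326119) was not tested either, at 5.06 and 5.09 in OsBIERF3-OE and 4.85 and 5.44 in WT.

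Both silicon channel genes had lower signals in OsBIERF3-OE without passing the test. NIP2-1 (LOC4330713, also Lsi1), the silicic acid channel of root uptake, had 185 and 103 in OsBIERF3-OE, against 283 and 235 in WT (log2 change -0.90 ± 0.30, SE; 95% interval -1.66 to -0.15; adjusted p = 0.0849). NIP2-2 (LOC4340558, also Lsi6), which unloads silicic acid from the xylem in shoots, had 1826 and 1971 in OsBIERF3-OE, against 3140 and 2377 in WT (log2 change -0.53 ± 0.16, SE; adjusted p = 0.0648). For both genes the 2 OsBIERF3-OE arrays were below the 2 WT arrays. The log2 change of NIP2-1 was -1.33 without OsBIERF3-OE replicate 1 (adjusted p = 0.0186) and -0.48 without OsBIERF3-OE replicate 2 (0.186). That of NIP2-2 was -0.73 without WT replicate 2 (adjusted p = 0.0479) and -0.33 without WT replicate 1 (0.201). The efflux transporter gene Lsi2 (LOC4331328), which works with Lsi1 in roots, was too dim to be tested, at 6.67 and 6.43 in OsBIERF3-OE and 9.36 and 8.12 in WT.

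Neither SIP gene passed. SIP1-1 (LOC4325361) had 2024 and 2248 in OsBIERF3-OE and 2148 and 2329 in WT, which overlap (log2 change -0.07, 95% interval -0.34 to 0.20, adjusted p = 0.69). SIP2-1 (LOC4332668) had 102 and 112 in OsBIERF3-OE and 127 and 109.7 in WT, which also overlap (log2 change -0.15, 95% interval -0.53 to 0.23, adjusted p = 0.525). Both signs turned with the arrays scaled on hybridization controls, to 0.22 and 0.14.

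For 5 members the array holds several probe sets that the gene table gives to that gene alone, and for PIP2-1 they disagreed in direction. Of all probe sets tested, 24.2% passed. Its second probe set read 6233 and 6607 in OsBIERF3-OE, against 4910 and 3587 in WT (log2 change 0.61, adjusted p = 0.05, at the threshold and not past it). Its dimmest probe set read 341 and 232 in OsBIERF3-OE, against 593 and 562 in WT, and was called lower (log2 change -1.04 ± 0.20, SE; 95% interval -1.56 to -0.52; adjusted p = 0.0233). The rise given for PIP2-1 is that of the brightest of the 3 probe sets. The type of that probe set (_x_at) can also bind transcripts of similar genes. The brightest probe sets of NIP2-2, TIP2-2 and TIP4-2 are of the same type. The second PIP2-1 probe set is of the _a_at type. The dimmest, which was called lower, is the only PIP2-1 probe set with the plain _at ending. A rise of the PIP2-1 gene as a whole is therefore not shown. Which transcripts each probe set reads was not tested.

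The other 4 such genes had probe sets of like sign. For TIP1-1 the second probe set, also of the _x_at type, had 8407 and 9047 in OsBIERF3-OE, against 6689 and 5529 in WT, and was called higher (log2 change 0.52, adjusted p = 0.0349), while the brightest one did not pass. For PIP2-2 the brightest probe set read 3101 and 3224 in OsBIERF3-OE and 4021 and 3549 in WT, and the other 63.5 and 61.3 in OsBIERF3-OE and 72.3 and 75.6 in WT. Their log2 changes were -0.26 and -0.25, and neither passed. The second probe sets of TIP4-1 (11 and 11.8 in OsBIERF3-OE, 12.5 and 15.7 in WT) and TIP2-1 (5.75 and 5.55 in OsBIERF3-OE, 6.37 and 5.86 in WT) were under background on every array.

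**Figure D3:**
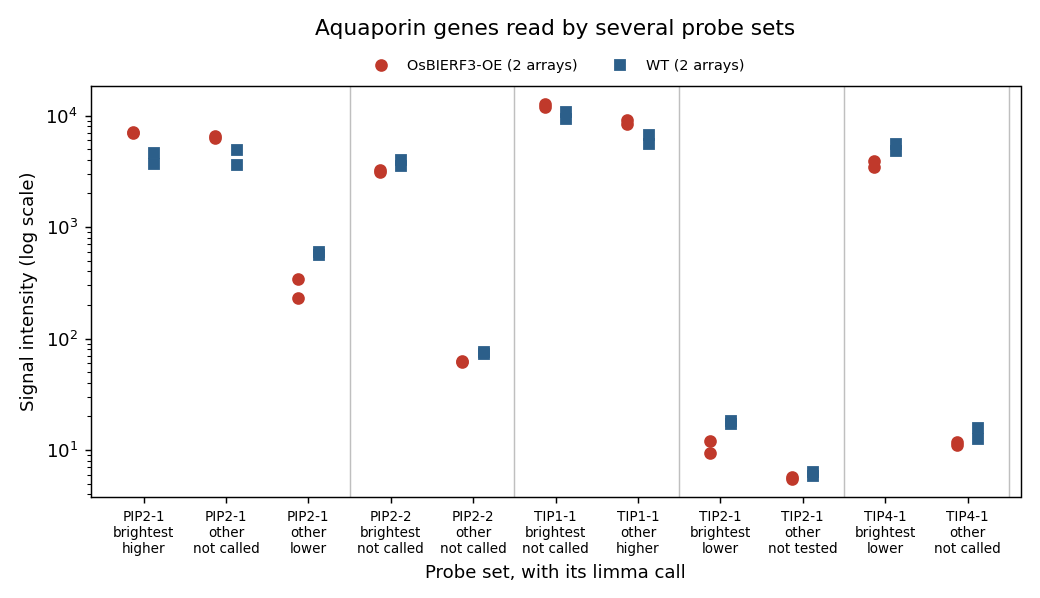
Signal intensity (log scale) on each array for the 11 probe sets of the 5 aquaporin genes read by more than 1, with the limma call under each name, OsBIERF3-OE as circles and WT as squares. The brightest PIP2-1 probe set is higher and its dimmest is lower in OsBIERF3-OE, with no overlap in either.

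Several members varied between the 2 arrays of a genotype more than most genes did. For 4 of the 22 tested aquaporins (18.2%), TIP1-2, PIP2-5, PIP1-3 and PIP2-4, the larger of the 2 within-genotype gaps was over 1 on the log2 scale, beside 3.72% of all genes tested. The median of that gap was 0.23 over the 22 aquaporins and 0.25 over all genes, so the typical member varied about as much as genes in general. Outside the 4, NIP2-1 had the largest gap, 0.84, with a smaller gap in 94.5% of genes. PIP1-3 and PIP2-4 were both higher on OsBIERF3-OE replicate 1 than on replicate 2 (gaps of 0.63 and 1.05) and both lower on WT replicate 1 than on replicate 2 (gaps of -1.09 each). PIP2-5 ran the other way in OsBIERF3-OE, with a gap of -1.38. None of these 4 passed the test between genotypes.

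Genes of dehydration and abscisic acid responses, a process that acts on aquaporins, were measured beside them. Of 26 such genes on the array 21 were tested, of which 1 rose, 3 fell and 17 did not pass, with a median log2 change of -0.21. That is 19% called, beside 31.8% of all genes tested. The falls were in 3 of the 10 tested SAPK genes, which encode SnRK2 kinases of abscisic acid and osmotic signalling, and the other 7 did not pass, with log2 changes of -0.32 to 0.26. SAPK1 had 449 and 352 in OsBIERF3-OE, against 808 and 883 in WT (log2 change -1.09, adjusted p = 0.0106). SAPK9 had 1359 and 1126 in OsBIERF3-OE, against 2330 and 2262 in WT (log2 change -0.89, adjusted p = 0.0101), and SAPK6 had a log2 change of -0.80 (adjusted p = 0.0264). The rise was in the dehydrin gene Dip1 (499.6 and 569.8 in OsBIERF3-OE, 329 and 361 in WT; adjusted p = 0.0262).

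Some markers of cell types and of RNA quality also differed between the genotypes. All 6 tested markers of dividing cells rose (of 7 on the array), with summed signals of 4769 and 4596 in OsBIERF3-OE, against 364 and 349 in WT. Of 4 tested mesophyll markers 2 fell and 2 did not pass, with summed signals of 35610 and 36985 in OsBIERF3-OE, against 39273 and 38774 in WT. Beside these counts, 17.2% of all genes tested were called higher and 14.5% lower. Of 5 root markers on the array 4 were not above background on any array, and the 1 that rose, SHR1, read 41.2 and 40.9 in OsBIERF3-OE and 13.5 and 11.8 in WT. Of 8 seed storage markers 6 were not above background, and 2 of the 3 tested fell. These 2 were above background on all arrays. GLB read 1096 and 1082 in OsBIERF3-OE and 1594 and 1486 in WT, and GLUA2 318 and 295 against 603 and 598. The markers were matched by name, and whether these 2 act as seed storage genes was not tested. The ratio of 3′ to 5′ signal, a sign of RNA or cRNA integrity, was 5.73 and 4.81 in OsBIERF3-OE and 9.45 in both WT samples for actin, and 7.37 and 7.25 in OsBIERF3-OE and 12.8 and 11.2 in WT for GAPDH. It was 1.17 and 1.24 in OsBIERF3-OE and 1.52 and 1.38 in WT for ubiquitin, and for cyclophilin the genotypes overlapped, at 1.82 and 1.81 in OsBIERF3-OE and 1.71 and 1.82 in WT. The part of any of these in the aquaporin values was not tested.

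The arrays had nearly one distribution when deposited, while the hybridization controls, RNAs added to the mix, were dimmer on the OsBIERF3-OE arrays. Scaling on those controls put the median of all genes tested at 0.24, against -0.04 without it. Under that scaling 7 of the 22 tested aquaporins passed as higher and 0 as lower, beside 4614 of all genes higher and 865 lower. The scaling shifts all genes alike, and relative to the median of all genes the subfamily medians were the same with and without it: 0.31 for PIP, -0.33 for TIP, -0.48 for NIP (3 genes) and -0.07 for SIP (2 genes).

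**Figure D4:**
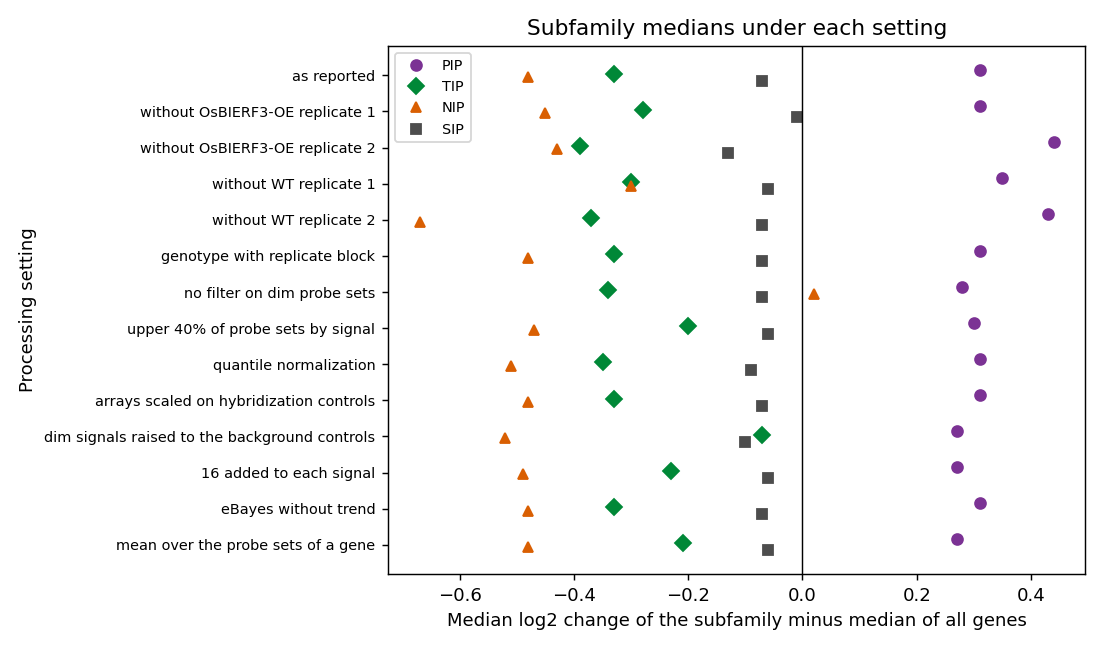
Median log2 change of each aquaporin subfamily minus the median of all genes (horizontal axis) under the processing settings (rows), with 1 symbol per subfamily. The crossed pairing of replicates is not shown. The PIP median stays between 0.27 and 0.44 and the TIP median between -0.39 and -0.07, while the NIP median ranges from -0.67 to 0.02 and is near 0 when the 2 dim NIP genes are included.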

How the data were processed

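The authors deposited 1 linear signal intensity for each probe set and array. The submitters' processing notes name MAS5, without saying what it was used for, and neither normalization nor background correction is described. After sorting, log2 values on each array differed by at most 0.0803 from the average array. RNA was extracted with TRIzol and 2 µg were amplified, per the labels' protocols.

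Signals (lower limit 1) were put on the log2 scale, the 123 control probe sets were removed, and 34355 probe sets (the upper 60% by mean) entered the test by limma (version 3.58.1, R 4.3.3; eBayes with trend, genotype alone, Benjamini-Hochberg adjustment over all probe sets at 0.05). The lowest geometric mean signal tested was 12.3. The fit had 5.28 total degrees of freedom. Every adjusted p in the text is limma's.

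Genes came from the platform table through gene IDs to the RefSeq table of assembly GCF_034140825.1 (pandas 2.3.3), and all 25 members matched. Of 29 aquaporin names there, NIP1-2, NIP3-3, PIP2-3 and TIP5-1 had no probe set of their own and were not analysed here, nor were 2 probe sets shared between genes. Coordinates were used here only to put the genes of a chromosome in order. No fold is given where a genotype had no array above background. The background controls, the members and the lists were chosen with earlier results of these data known. Text values were given for members past the adjusted p, those apart by at least 2-fold, the brightest of each subfamily and those with several probe sets, and other members were added. Searches for proton pumps, fixed as further lists, found no pump gene (the 1 match was the photosystem gene PSAG), and the search for silicon and boron efflux found Lsi2 alone.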

Additional observations from a re-analysis of the deposited data

How the results depend on the processing

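Of the 6 calls, PIP2-1 passed in 13 of 14 alternatives, NIP1-1 in 11, PIP1-1 in 8, PIP2-7 in 7, TIP4-1 in 6 and TIP2-1 in 6 of 12. Those 13 all read the brightest PIP2-1 probe set. PIP2-1 did not pass with the mean over the gene's probe sets (log2 change 0.12, adjusted p = 0.575). The count therefore does not bear on its other probe sets. Leaving out 1 array gave 1 to 3 aquaporins higher and 0 to 3 lower (0 lower without WT replicate 1), 1382 to 1870 genes higher and 635 to 1826 lower, and 2111 to 2903 probe sets higher and 1159 to 3268 lower, each fit taking its spread from the genotype with 2 arrays. The subfamily medians then ran from 0.29 to 0.39 for PIP and from -0.73 to -0.33 for NIP, and signs turned for PIP1-3 (-0.28 to 0.81), PIP2-4 (-0.72 to 0.37) and SIP1-1 (-0.14 to 0.01).

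With a replicate block 1 aquaporin was higher and 1 lower (PIP2-1, and TIP1-2 at -2.18 with adjusted p = 0.0325), with 1646 genes higher and 962 lower and 2665 and 1875 probe sets. Same-numbered arrays deviated in opposite directions (correlation of deviations -0.249), and with 2 pairs they were not taken as pairs. The crossed pairing, chosen after seeing this, gave 7 aquaporins higher and 6 lower. Calls rose among all genes too, to 3796 higher and 3938 lower (5790 and 6549 probe sets). This pairing is among the alternatives counted above, and all 6 calls passed in it.

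Scaling on the hybridization controls gave 7 aquaporins higher and 0 lower, 4614 genes higher and 865 lower, 7729 probe sets higher and 1615 lower, and medians of 0.18 for all aquaporins, 0.55 for PIP, -0.09 for TIP, -0.24 for NIP and 0.18 for SIP. It turned the sign of PIP2-2 (0.03), PIP2-4 (0.12), SIP1-1 (0.22), SIP2-1 (0.14), TIP3-2 (0.27) and TIP4-2 (0.03), none of which passed, by shifting all genes. With dim signals raised to background 5 aquaporins were lower, the medians were 0.01 for the family and -0.08 for TIP, and TIP2-1 and TIP3-2 were at 0.10, where both genotypes sit at the background level. Quantile normalization gave 5 higher, and eBayes without trend and the mean over a gene's probe sets 1 lower each. The TIP median was -0.26 with that mean, with 16 added to each signal and with the upper 40% of probe sets. Without a filter the NIP median was -0.02, as 2 dim genes enter. The cause of the other moves was not tested. For dim members signal over background limits what can be told.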
